A study of Mus musculus with 10 samples.

Results

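Across 10 libraries of mouse lumbar spinal cord, 9 genes of Schwann cells and peripheral myelin were followed: Pmp2, Prx, Pmp22, Egr2, Ncmap, Drp2, Cldn19, Gldn and Dhh. They were chosen by name and matched from symbol to mouse Ensembl identifier, and these 9 genes stand among 22024 identifiers in the count table. All 9 passed the filter on low counts, which left 15191 genes for testing. Each library is polyadenylated RNA from the lumbar cord of 1 female mouse at 3 months of age. There were 3 mice labelled nontransgenic (NTg, animals 4, 5 and 6). A further 2 mice carried a wild-type human TARDBP transgene (WT, animals 8 and 10) and 5 carried the same transgene with the M337V change in TDP-43, the RNA-binding protein that TARDBP encodes (M337V, animals 1, 2, 3, 7 and 9). Both transgenes are human genomic BACs placed at the Rosa26 locus of embryonic stem cells, whose chimeras were bred to C57BL/6J, so every group also keeps its mouse Tardbp. Whether the transgenic animals were heterozygous or homozygous is not given per sample. TDP-43 M337V is a change linked to amyotrophic lateral sclerosis.

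Schwann cells wrap the axons of peripheral nerves and of the spinal roots, whereas oligodendrocytes make the myelin inside the cord. The transcription factor Egr2 (Krox20) drives the peripheral myelin programme. Compact peripheral myelin holds the tetraspan protein Pmp22 and the fatty acid-binding protein Pmp2. At the outer membrane of the Schwann cell, periaxin (Prx) and dystrophin-related protein 2 (Drp2) connect to the dystroglycan complex. Claudin 19 (Cldn19) seals the loops of noncompact myelin, and gliomedin (Gldn) is released at the node of Ranvier. Schwann cells also secrete Desert hedgehog (Dhh), a ligand that patterns the sheath of the nerve.

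Facts of the libraries bear on what follows. Total counts ran from 18724888 to 21041474 per library, a narrow range. Human TARDBP gave 114 to 141 CPM (counts per 1000000, over a library size scaled by the trimmed mean of M values, TMM) in the 7 transgenic libraries, 0.0493 in NTg 5 and 0.186 in NTg 6. The library labelled NTg animal 4 gave 118 CPM (2415 counts), so its transcript goes against its label, and results are given with and without it. Library WT 8 also stands apart: genes of the posterior Hox clusters, which mark the lumbar and sacral cord, summed to 12.6 CPM there, against 174 to 224 in the NTg libraries, 220 in WT 10 and 41.2 (M337V 3) to 166 (M337V 7) in the M337V libraries. The defining posterior Hox genes are thus low in a library labelled lumbar. Oligodendrocyte genes were high in all 10 libraries, at summed levels of 4448 to 6818 CPM.

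The starts of these genes are shown because the 9 transcripts were high or low together between animals and because several of them are textbook targets of Egr2. RefSeq (GRCm38.p6) gave promoter windows for 7 of the 9 genes, 16 windows in all, each running from 250 bases before a transcription start to 50 bases after it. The EGR motif GTGGGNG, searched on both strands, was present in at least 1 window of 5 of these 7 genes (Prx, Egr2, Ncmap, Cldn19 and Dhh), and 34.3% of all 27025 genes in the table have it. The SOX motif ACAANG was present for 2 of the 7, against 44.9% of all genes, and the longer EGR motif GCGTGGGCG for 0 of the 7, against 0.707%. A letter match is a description of the sequence and not a binding site. The 250 bases before the first listed start of 5 genes read as follows, 5′ to 3′ on the strand of the gene, with capitals for matches to GTGGGNG or its reverse complement. Gldn is shown as a member whose window holds no match.
Prx chr7:27499074-27499323 (plus strand): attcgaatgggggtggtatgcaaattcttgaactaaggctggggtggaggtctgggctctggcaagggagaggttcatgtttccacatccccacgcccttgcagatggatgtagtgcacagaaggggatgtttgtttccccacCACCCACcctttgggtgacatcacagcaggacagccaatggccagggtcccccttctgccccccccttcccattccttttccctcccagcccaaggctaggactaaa
Cldn19 chr4:119255191-119255440 (plus strand): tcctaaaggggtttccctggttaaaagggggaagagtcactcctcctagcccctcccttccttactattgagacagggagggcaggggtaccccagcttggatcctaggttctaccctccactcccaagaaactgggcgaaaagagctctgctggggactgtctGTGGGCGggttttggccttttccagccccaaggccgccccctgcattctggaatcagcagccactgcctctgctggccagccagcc
Dhh chr15:98898541-98898790 (minus strand): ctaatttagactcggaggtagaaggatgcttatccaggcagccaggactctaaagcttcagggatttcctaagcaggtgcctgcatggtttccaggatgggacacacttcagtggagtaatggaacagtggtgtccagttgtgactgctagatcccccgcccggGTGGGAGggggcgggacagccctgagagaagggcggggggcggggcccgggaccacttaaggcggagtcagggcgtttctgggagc
Ncmap chr4:135398228-135398477 (minus strand): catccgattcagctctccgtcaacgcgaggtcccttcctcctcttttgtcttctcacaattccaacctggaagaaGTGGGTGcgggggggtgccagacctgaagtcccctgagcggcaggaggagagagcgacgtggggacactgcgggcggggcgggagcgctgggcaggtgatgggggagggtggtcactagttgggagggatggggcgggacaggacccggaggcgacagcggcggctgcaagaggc
Gldn chr9:54286236-54286485 (plus strand): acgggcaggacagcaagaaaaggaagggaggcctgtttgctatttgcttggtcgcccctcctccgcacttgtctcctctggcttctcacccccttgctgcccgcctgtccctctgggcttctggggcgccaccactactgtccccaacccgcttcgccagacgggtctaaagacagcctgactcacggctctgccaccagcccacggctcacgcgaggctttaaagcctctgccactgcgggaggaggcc

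The 9 genes were high or low together from animal to animal, and the 2 animals that stood highest carried different genotype labels. The label of NTg 4, 1 of these 2, goes against its human TARDBP level (118 CPM). NTg 4 was the highest library for 8 of the 9 genes and second for Pmp2. M337V 3 was second for those 8 genes and highest for Pmp2. WT 8 was the lowest library for all 9. Summed over the 9 genes, the level was 1286 CPM in NTg 4, 459.7 in NTg 5 and 362 in NTg 6. It was 199.6 CPM in WT 8 and 314 in WT 10, and 259, 348, 1098, 459.7 and 519.6 in M337V 1, 2, 3, 7 and 9. The M337V group alone therefore spans from below WT 10 to above every library but NTg 4. In bulk tissue, less spinal root in the sample, fewer Schwann cells and less of these RNAs per Schwann cell cannot be told apart.

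**Figure D1:**
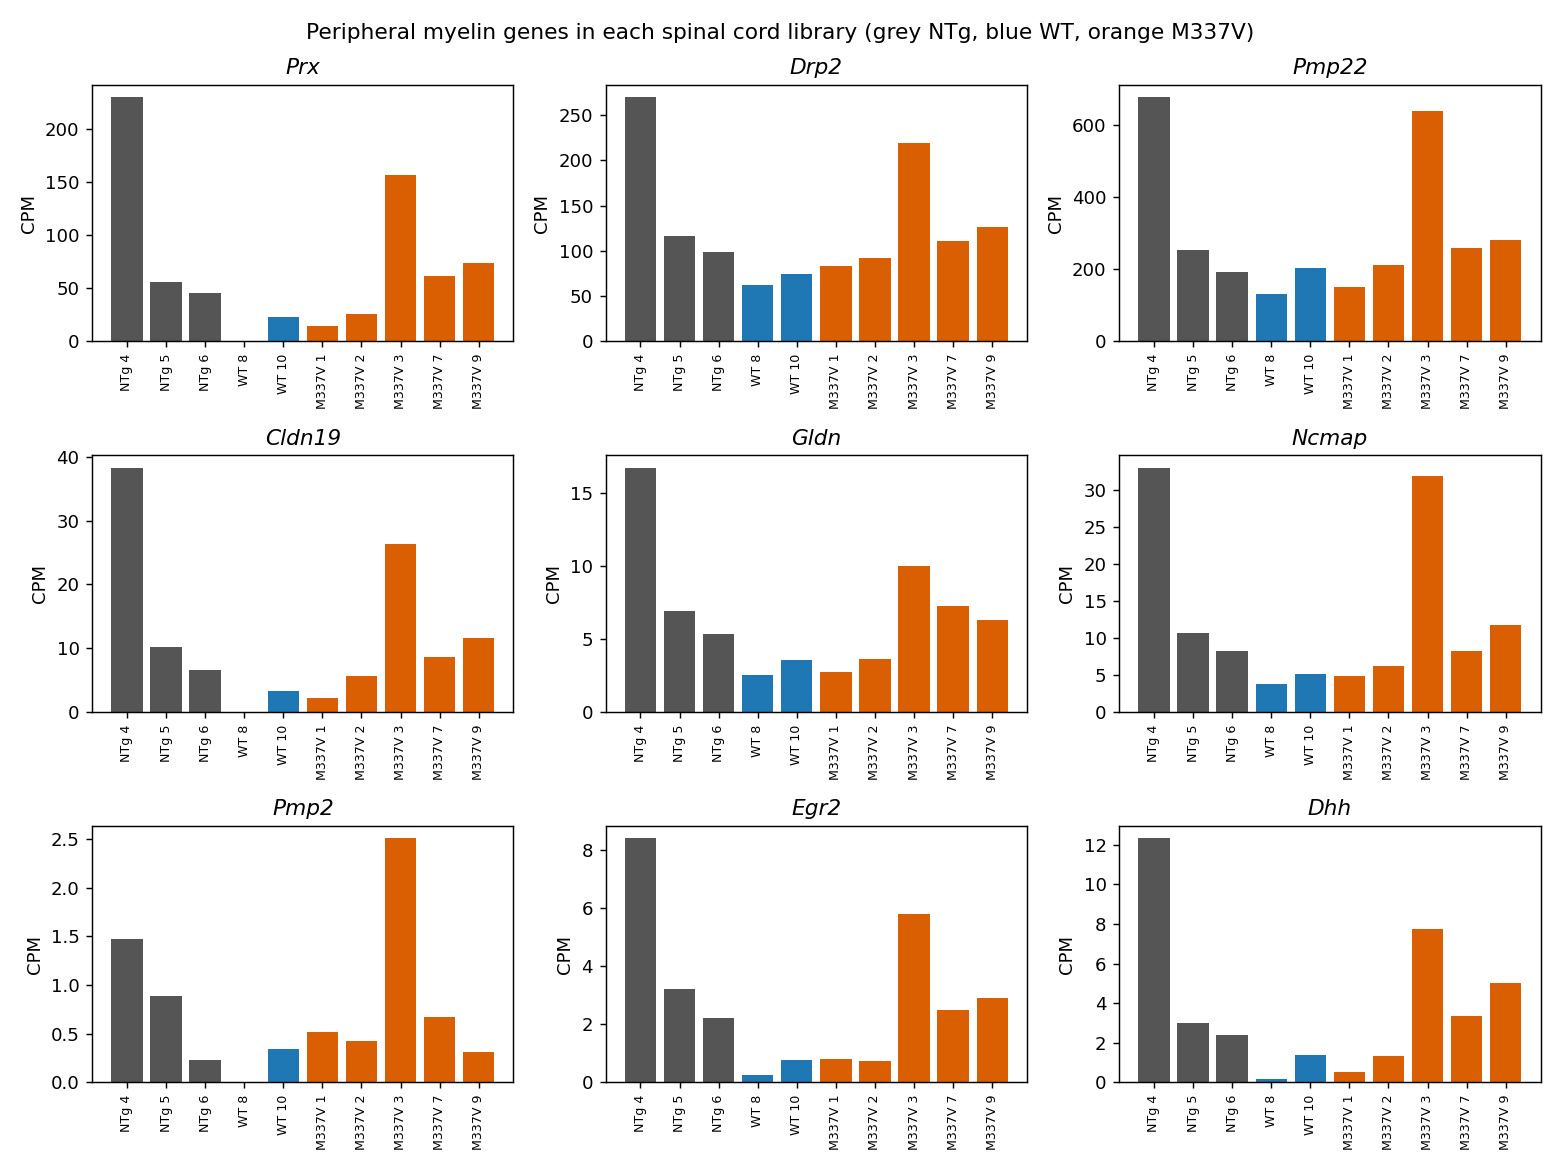
Level of each of the 9 genes in each library, in CPM on a linear axis that starts at 0; 1 bar is 1 animal, grey for NTg, blue for WT and orange for M337V. NTg 4 and M337V 3 stand above the other libraries in every panel, and WT 8 is lowest in every panel.

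Egr2, the zinc-finger factor that myelinating Schwann cells need, gave 8.42, 3.20 and 2.23 CPM in NTg 4, 5 and 6, 0.262 and 0.779 in WT 8 and 10, and 0.819, 0.751, 5.80, 2.48 and 2.91 in M337V 1, 2, 3, 7 and 9. Both WT libraries lie below all 3 NTg libraries, while the M337V libraries overlap both groups. The gene lies at chr10:67535475-67542188 on the plus strand (GRCm38, GENCODE M21, as for the positions below). The WT 8 value rests on 5 counts.

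Pmp22, whose dosage in people underlies forms of Charcot-Marie-Tooth neuropathy (chr11:63128982-63159547, plus strand), gave 676, 253 and 192 CPM in the NTg libraries, 129.9 and 202 in WT 8 and 10, and 149.8, 212, 638, 257 and 281 in the M337V libraries in the order above. WT 10 lies between NTg 6 and NTg 5, so the groups overlap in all 3 comparisons. Pmp2, the lipid carrier of peripheral myelin (chr3:10179851-10183929, minus strand), was near the limit of detection: 1.47, 0.887 and 0.233 CPM in NTg, 0 and 0.341 in WT, and 0.512, 0.429, 2.51, 0.672 and 0.312 in M337V. WT 8 had 0 Pmp2 counts, which allows up to 0.157 CPM (3 counts). The groups overlap for Pmp2 in all 3 comparisons, and WT 8 lies under every other library.

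Prx, the scaffold of the outer Schwann cell membrane (chr7:27499324-27520214, plus strand), gave 229.9, 55.5 and 45.9 CPM in NTg, 0.419 and 23.0 in WT, and 14.4, 25.7, 157, 61.4 and 73.8 in M337V. NTg 4 was 549-fold above WT 8 (4695 against 8 counts, exact 95% interval 279 to 1273, covering counting error only). Within a single genotype, M337V 3 was 10.9-fold above M337V 1 (interval 9.64 to 12.4). Drp2, its partner (chrX:134404551-134456573, plus strand), gave 269.8, 117 and 98.8 CPM in NTg, 62.7 and 74.7 in WT, and 82.8, 91.8, 219, 111 and 126 in M337V. Drp2 had the same 3 highest libraries as Prx and the same lowest over a narrower span, 4.30-fold from WT 8 to NTg 4, and it is the 1 gene of the 9 whose M337V libraries all lie above both WT libraries.

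Cldn19, the claudin of noncompact myelin (chr4:119255414-119262438, plus strand), gave 38.3, 10.2 and 6.57 CPM in NTg, 0 and 3.26 in WT, and 2.15, 5.69, 26.4, 8.53 and 11.6 in M337V. WT 8 had 0 Cldn19 counts, so NTg 4 was at least 244-fold higher, taking 3 counts in WT 8 as the floor. Ncmap, a membrane protein of noncompact myelin (chr4:135369576-135398227, minus strand), gave 33.0, 10.7 and 8.19 CPM in NTg, 3.71 and 5.07 in WT, and 4.86, 6.17, 31.8, 8.27 and 11.7 in M337V. For Ncmap, M337V 3 and NTg 4 were nearly level (ratio 1.04 for NTg 4 over M337V 3, interval 0.928 to 1.16).

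Gldn, which clusters sodium channels at the node through neurofascin (chr9:54286486-54341786, plus strand), gave 16.7, 6.90 and 5.35 CPM in NTg, 2.51 and 3.56 in WT, and 2.71, 3.59, 10.0, 7.24 and 6.29 in M337V. Dhh, the ligand (chr15:98891152-98898540, minus strand), gave 12.3, 3.00 and 2.37 CPM in NTg, 0.157 and 1.36 in WT, and 0.512, 1.34, 7.73, 3.36 and 5.04 in M337V. For both genes the WT libraries lie below the NTg libraries and the M337V libraries overlap both. The WT 8 value of Dhh is 3 counts, and the ratio of NTg 4 to WT 8 was 78.6 with an interval of 26.6 to 384.

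Such a spread among libraries of the same genotype label was rare in the table. Its measure here includes NTg 4, whose transcript goes against its label, and was not computed without that library. The standard deviation of log2 CPM within genotype labels, pooled over the 3 groups, was 1.91 for Prx, and 28 of the 15191 genes tested had a larger one. It was 1.82 for Cldn19 (32 genes larger), 1.47 for Dhh (81), 1.15 for Pmp2 (131) and 1.09 for Egr2 (142). Ncmap (0.98), Pmp22 (0.79), Gldn (0.74) and Drp2 (0.59) spread less, and 690 genes spread more than Drp2. The median over all genes tested was 0.12. Across the 10 libraries, the Pearson correlation of a gene with the mean of the other 8 ran from 0.865 (Pmp2) to 0.971 (Dhh), a description over points that share library and scaling. Without NTg 4 and WT 8, the 2 libraries farthest out, it ran from 0.664 (Pmp2) to 0.977 (Prx).

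The genes split by what remained in WT 8. As a share of the median of the other 9 libraries, WT 8 kept 0.755% of Prx, 5.22% of Dhh and 10.5% of Egr2, with 0 counts of Cldn19 and Pmp2. It kept 39.9% of Gldn, 44.9% of Ncmap, 51.4% of Pmp22 and 56.7% of Drp2. A straight line of each gene on Prx, drawn through the other 9 libraries, gave values at the Prx level of WT 8, a library it had not used. For Drp2 it gave 61.9 CPM against 62.7 measured (58.9 with NTg 4 also left out). For Pmp22 it gave 116 against 129.9 (87.5 without NTg 4), and for Gldn 2.46 against 2.51 (2.87). For Dhh the line gave 0.132 CPM against 0.157 (0.210 without NTg 4), and for Egr2 0.350 against 0.262 (0.304). For Drp2, Pmp22 and Gldn the line therefore meets the axis above 0, at 61.5, 115 and 2.43 CPM where Prx is 0. The residual spread about these lines was 8.22, 51.9 and 0.990 CPM, so the line for Pmp22 is much looser than that for Drp2. Ncmap measured 3.71 CPM in WT 8, above its line at 1.96 by less than the residual spread of 3.01 CPM, and the line without NTg 4 gave 0.0933.

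**Figure D2:**
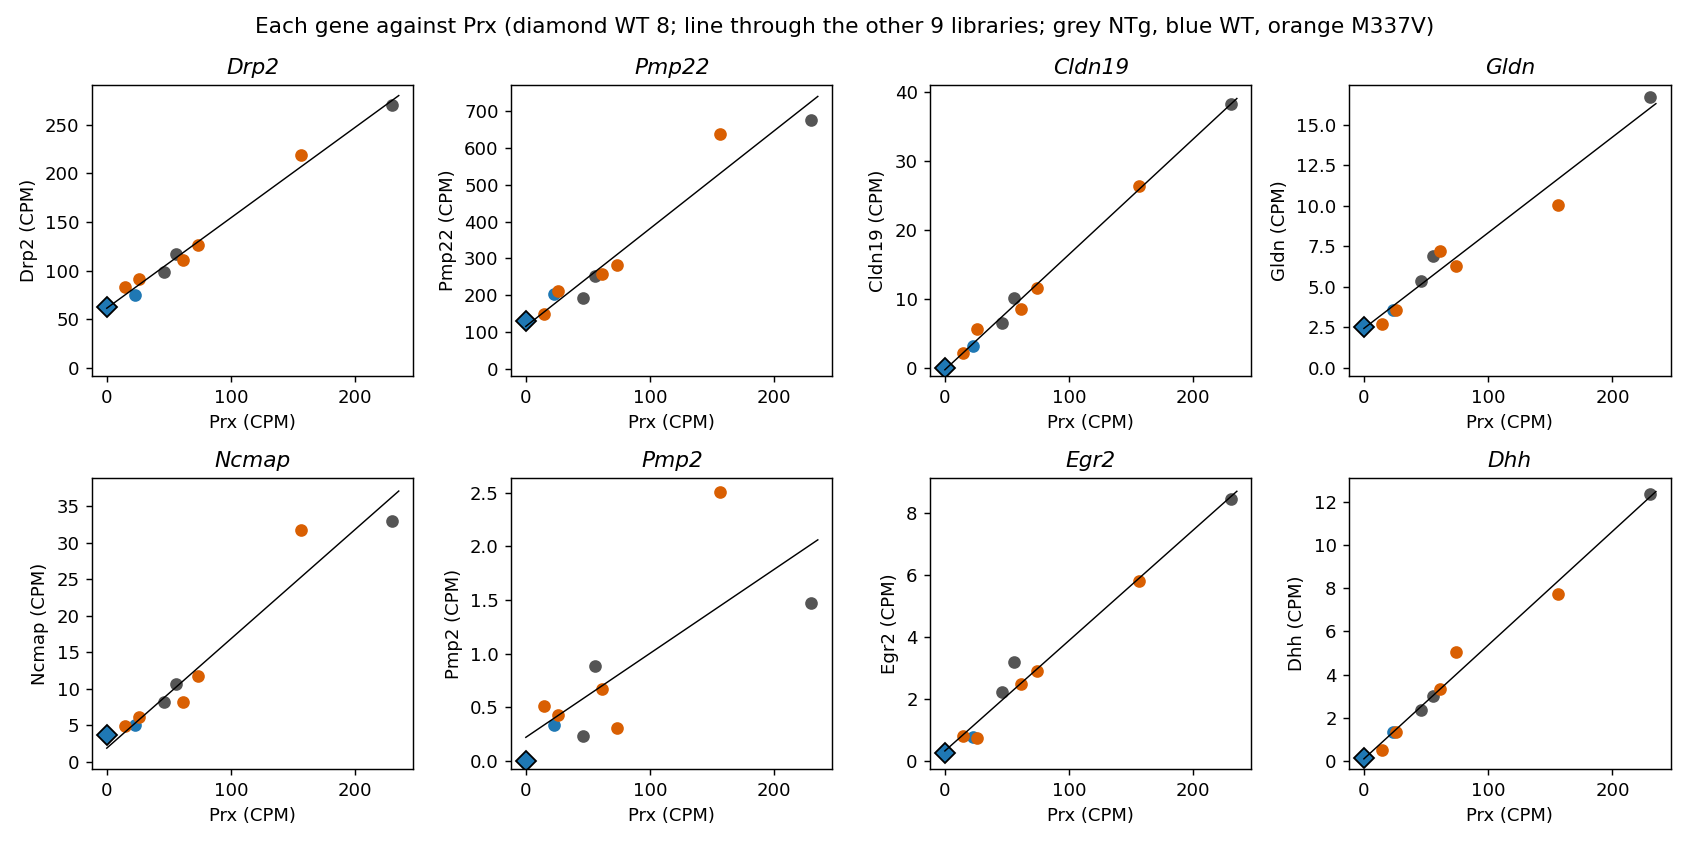
CPM of the other 8 genes (vertical axes) against CPM of Prx (horizontal axes), 1 point per library, grey for NTg, blue for WT, orange for M337V; the diamond is WT 8 and the line is fitted to the other 9 libraries. For Drp2 and Pmp22 the line meets the left axis at 61.5 and 115 CPM, and for Cldn19 and Dhh near 0.

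Levels between genes can be compared only per length. In CPM per kilobase of exon, averaged over the 10 libraries, Pmp22 stood at 127 ± 82.7 (SD, n = 10), Drp2 at 14.7 ± 7.81, Prx at 12.3 ± 12.8, Ncmap at 5.54 ± 4.87 and Cldn19 at 2.64 ± 2.81. Gldn followed at 1.39 ± 0.925, Dhh at 0.846 ± 0.860, Egr2 at 0.814 ± 0.759 and Pmp2 at 0.523 ± 0.528. Pmp22 exceeded Drp2 in 10 of 10 libraries, Prx exceeded Ncmap in 9 and Ncmap exceeded Cldn19 in 10. The order of Gldn over Dhh also stood in 10 of 10. Dhh over Egr2 and Egr2 over Pmp2 each stood in 6 of 10, so the last 3 genes cannot be ranked beyond their spread.

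In M337V against NTg cord, none of the 9 genes passed the test, in a comparison that called 4.29% of all genes (2.67% higher and 1.61% lower). By edgeR's quasi-likelihood test with Benjamini-Hochberg adjustment over 15191 genes, 0 of 9 had an adjusted p below 0.05, 0 of 9 an unadjusted p below 0.05 (24.5% of all genes had one), and DESeq2 also called 0, where it called 10.1% of all genes. The estimated log2 differences were negative for 8 genes and 0.05 for Pmp2, with a median of -0.69 against -0.01 over all genes. Egr2 had -0.85 ± 0.59 (SE, adjusted p = 0.410) and Gldn -0.69 ± 0.42 (adjusted p = 0.333, the smallest of the 9). Prx had -0.73 ± 0.79 and Pmp22 -0.28 ± 0.46. The ranges of the M337V and NTg libraries overlapped for all 9 genes, where the M337V libraries lay wholly above the NTg libraries for 9.51% of all genes and wholly below for 8.61%. Without NTg 4 the median turned to 0.40, with 7 genes positive and 2 (Egr2 and Gldn) negative. With NTg 4, WT 8 and M337V 3 all left out it was -0.20, with 8 genes negative, so the sign of this comparison turned with the 2 highest libraries. Without M337V 3 alone the median was -1.14, and again 0 of 9 were called, where 1.06% of all genes were.

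In WT against NTg cord the 9 estimates were all negative, yet none passed the test, in a comparison that called 5.64% of all genes (3.59% higher and 2.05% lower). The median log2 difference was -2.25, against -0.02 over all genes, and the estimates ran from -3.45 ± 1.21 for Cldn19 to -1.17 ± 0.61 for Pmp22. Egr2 had the smallest adjusted p (edgeR, -3.12 ± 0.95, adjusted p = 0.0718), Prx had -3.22 ± 1.20 (adjusted p = 0.122) and Drp2 -1.24 ± 0.46 (adjusted p = 0.118). The unadjusted p was below 0.05 for 7 of 9, as for 25.3% of all genes. Both WT libraries lay below all 3 NTg libraries for 7 of 9 genes, all but Pmp22 and Pmp2, where 22.1% of all genes did so. The 9 genes were high or low together across libraries, so in each comparison their counts are not of independent genes. DESeq2 called 1 of the 9 genes, Egr2 (adjusted p = 0.0265), where it called 11.8% of all genes. Leaving out M337V 3, which enters only the shared estimate of spread, edgeR also called Egr2 alone (adjusted p = 0.0460, 7.17% of all genes called).

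The size of this estimate depended on single libraries. Without NTg 4 the median was -1.62, without WT 8 it was -1.77, and without both it was -0.89. With WT 10 left out, so that WT 8 was the only WT library, it was -4.11. The number called was 0 of 9 in each of these 4 fits, which called 1.87%, 1.59%, 0.922% and 1.71% of all genes in that order. A single library left in the WT arm is assumed to vary like the other groups.

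M337V and WT cord share their construct and locus and differ by the mutation. Here 0 of 9 genes were called by edgeR, as were 0% of all genes, and DESeq2 called 0 of the 9 and 0.21% of all genes. All 9 estimates were positive, with a median of 2.21 (0.00 over all genes), from 0.88 ± 0.42 for Drp2 to 2.70 ± 1.16 for Cldn19, and adjusted p ran from 0.742 to 0.803. An unadjusted p below 0.05 was found for 3 of 9 (Prx, Egr2 and Cldn19), where 6.66% of all genes had one. The M337V libraries lay wholly above the WT libraries for 1 gene, Drp2, where 4.85% of all genes did so. Without WT 8 the median was 1.36, without M337V 3 it was 1.43, and without WT 10 it was 3.26. The 3 comparisons share libraries and are not separate evidence.

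**Figure D3:**
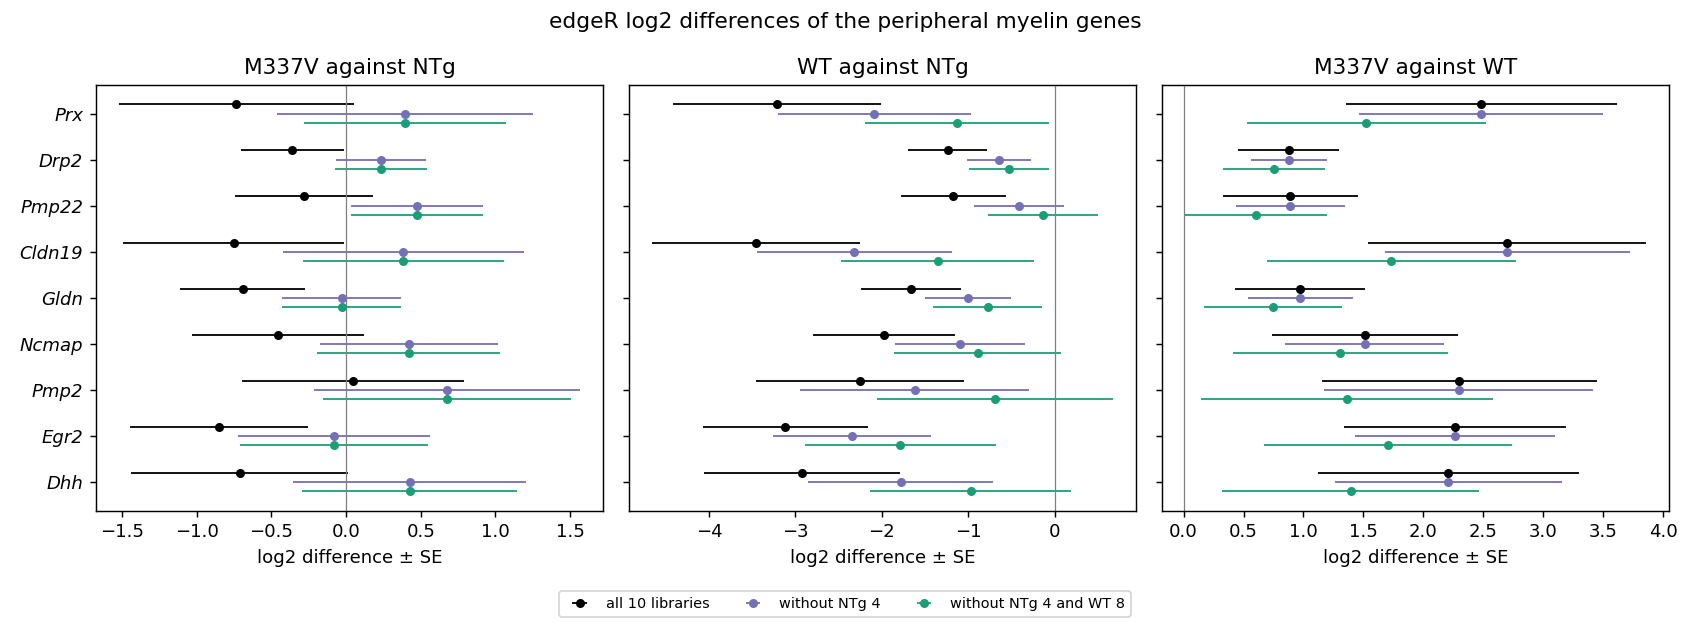
edgeR log2 difference of each gene with its SE, for the 3 comparisons, with all 10 libraries (black), without NTg 4 (purple) and without NTg 4 and WT 8 (green); the grey vertical line is 0. In M337V against NTg the median of the black points is -0.69 and that of the purple points 0.40; in WT against NTg all points are below 0.

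Other Schwann cell genes did not all share the pattern. Of 14 such genes, 0 were called by edgeR in any comparison, and DESeq2 called 1 as higher in M337V and 2 as higher in WT than in NTg. The sodium channel gene Scn7a gave 45.3, 22.0 and 19.2 CPM in NTg, 8.11 and 15.7 in WT, and 12.3, 13.6, 48.5, 17.4 and 27.9 in M337V. The amino acid transporter gene Slc36a2 gave 18.1, 5.86 and 4.42 CPM in NTg, 0.366 and 2.48 in WT, and 1.69, 2.09, 11.7, 4.76 and 5.82 in M337V. Both have NTg 4 and M337V 3 as their highest libraries and WT 8 as the lowest, and are named here after their values were seen. With Sostdc1 they are the 3 of 14 genes that do so. The estimates of the 14 went both ways, with 8 negative and a median of -0.18 in M337V and 9 negative and a median of -0.27 in WT against NTg. Ngfr, the low-affinity neurotrophin receptor gene, also had NTg 4 (9.26 CPM) and M337V 3 (8.10) highest, but its lowest library was M337V 2 (2.52). Cdh19, a cadherin gene of Schwann cell precursors, was highest in M337V 3 (60.4 CPM) and lowest in NTg 6 (29.1). Foxd3 spanned 0.751 to 2.06 CPM and Gfra3 0.0974 to 0.576, with WT 8 the highest library for Gfra3. The 4 most abundant of the list were Sox10, Lgi4, Itgb4 and Erbb3, and Sox10, a factor of both Schwann cells and oligodendrocytes, spanned only 102 to 127 CPM. The summed level of the 14 genes was 473 CPM in NTg 4, 459 in M337V 3 and 373 to 411 elsewhere. This sum gives most weight to the abundant genes, and besides Sox10 Lgi4 spanned 63.2 to 91.4 CPM, Itgb4 45.0 to 67.9 and Erbb3 44.3 to 57.1. It therefore says little about the genes of low level.

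Partners of the 9 genes were read against the same shares of all genes called, 4.29% in M337V and 5.64% in WT against NTg. Of 11 genes of the dystroglycan complex and basal lamina, to which Prx and Drp2 connect, 0 were called in any comparison by edgeR or DESeq2, with medians of -0.11 in M337V and -0.22 in WT against NTg. Of 10 genes of the node and paranode, among them the Gldn receptor gene Nfasc, edgeR called 0, with medians of -0.10 and 0.00, and DESeq2 called 1 lower in M337V. Among 11 regulators of Egr2 and of neuregulin signalling, the corepressor gene Nab1 rose in both transgenic groups: 63.3 ± 2.39 CPM in M337V (SD, n = 5), 63.1 ± 1.01 in WT (n = 2) and 48.8 ± 1.86 in NTg (n = 3). Its log2 difference was 0.38 (edgeR adjusted p = 0.0118) and 0.37 (edgeR adjusted p = 0.0123). Nab2 fell in WT by 0.61 on the log2 scale (edgeR adjusted p = 0.0194), a call that was lost without NTg 4 (edgeR adjusted p = 0.0536). Nab1 stayed called in both comparisons without NTg 4, and its WT call was lost without WT 8 (edgeR adjusted p = 0.0512).

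Of 15 genes of the hedgehog pathway, which Dhh feeds, Hhip, a decoy that binds the ligands, rose in both groups. It stood at 19.5 ± 1.22 CPM in NTg, 25.5 ± 0.894 in M337V (log2 difference 0.39, edgeR adjusted p = 0.0192) and 29.2 ± 2.30 in WT (0.58, edgeR adjusted p = 0.00957). The Hhip call in WT was lost only without both NTg 4 and WT 8 among the fits run (edgeR adjusted p = 0.0598). Ptch1, the main receptor and a common readout of the pathway, was not called, at 185 ± 5.80 CPM in NTg, 176 ± 2.94 in WT and 185 ± 7.00 in M337V. Dhh itself varied 78.6-fold between NTg 4 and WT 8.

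Of 19 relatives of the 9 genes in the same protein families, 2 were called in M337V and 1 in WT against NTg, where 4.29% and 5.64% of all genes were called. Cldn11, the oligodendrocyte claudin, rose in M337V (log2 0.36, edgeR adjusted p = 0.0368) and WT (0.49, edgeR adjusted p = 0.0222), and Emp2, a relative of Pmp22, fell in M337V by 0.41 on the log2 scale (edgeR adjusted p = 0.0479). All 3 calls were lost without NTg 4. Without NTg 6, when 2 genes of the whole table were called in M337V against NTg and 44 in WT against NTg, the M337V calls of Nab1, Hhip, Cldn11 and Emp2 and the WT calls of Nab1, Nab2 and Cldn11 were lost. Emp2 was lost on leaving out any 1 NTg or M337V animal, and Cldn11 in M337V also on leaving out M337V 1, 2 or 3. Hhip in M337V was also lost without M337V 2. In WT, Nab2 and Cldn11 were also lost without WT 8 or WT 10. Egr1, the activity-dependent relative of Egr2, ranged from 21.1 to 47.7 CPM with no call, and its highest library was NTg 6.

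Myelin genes that oligodendrocytes make did not have the pattern of the 9. Of 10 myelin genes used by both glia, edgeR called 3 higher in M337V than NTg, Mbp and Ugt8a among them, where 2.67% of all genes were called higher. It called 5 higher in WT, with Mag and Gjb1 besides, where 3.59% of all genes were called higher. The summed level of the 10 genes was lowest in the 3 NTg libraries, at 20719 to 24141 CPM against 28046 to 34299.7 in the other 7. NTg 4, highest for the peripheral genes, was thus second lowest here. Of 12 oligodendrocyte genes, 5 were called higher in M337V and 5 in WT against NTg, beside the same shares of all genes. In M337V against WT 0 were called, as were 0% of all genes. Without NTg 4 both counts were 2 for the shared genes and 2 for the oligodendrocyte genes. That fit called 1.3% of all genes in M337V and 1.87% in WT against NTg. These shares varied between fits: without NTg 6 they were 0.0132% and 0.291%, and without M337V 3 they were 1.06% and 7.17%. Over the fits that left out libraries, the shared genes gave 0 to 4 calls in M337V and 1 to 5 in WT.

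Genes of other tissue next to the cord were measured beside the 9. All 12 meningeal fibroblast genes were tested, 0 were called in any comparison, and their medians were -0.51, -1.42 and 0.88 in the order of the comparisons above. Their summed level was 915 CPM in NTg 4, 345 and 271 in NTg 5 and 6, 136 in WT 8 and 233 in WT 10. It was 169, 217, 547, 504 and 297 CPM in M337V 1, 2, 3, 7 and 9. NTg 4 was highest, M337V 3 second and WT 8 lowest, as for the 9 genes, and 0 of the 12 genes were at 0 in any library. The part of meningeal tissue in the differences of the 9 genes was not tested.

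Sensory ganglion genes summed to 88.8 to 154 CPM, highest in M337V 3, with WT 10 second at 142. Their defining members were near 0: Scn10a ran from 0 to 0.244 CPM in 9 libraries and reached 0.836 in M337V 3, and Scn11a from 0.0490 to 0.279 with 0.941 in M337V 3. Of 12 genes, 7 were tested and 0 called. Genes of the nerve sheath, 5 in all and 4 tested with 0 called, summed to 24.8 CPM in NTg 4, 13.4 in WT 8 and 8.54 in M337V 1, the lowest. M337V 3, second highest in the sum of the 9 genes, had 15.7 CPM for this list. It lay below M337V 7 (20.98), NTg 5 (19.9), NTg 6 (16.9), M337V 2 (16.2) and WT 10 (15.8). Skeletal muscle and fat genes had another order, with 1237 CPM in NTg 6, 809 in NTg 5, 699 in WT 8 and 21.4 to 201 in the other 7 libraries. Of 12 muscle and fat genes tested, Myh2 and Mb fell in M337V against NTg, where 1.61% of all genes were called lower. Neither call stood without NTg 4, where 1.3% of all genes were called in that comparison. With all libraries, the 12 estimates were all negative in M337V and in WT against NTg, with medians of -2.61 and -1.14. Neutrophil granule genes, 5 in all, summed to 449 CPM in NTg 4 and 24.3 in WT 8, the same ends of the order. In M337V 3 they summed to 44.2, second lowest here. Of the 5, 4 were called lower in each transgenic group against NTg, where 1.61% (M337V) and 2.05% (WT) of all genes were. Without NTg 4, 0 of the 5 were called, where 1.3% (M337V) and 1.87% (WT) of all genes were. The part of ganglion, nerve sheath, blood and posterior cord level in the differences of the 9 genes was not tested.

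**Figure D4:**
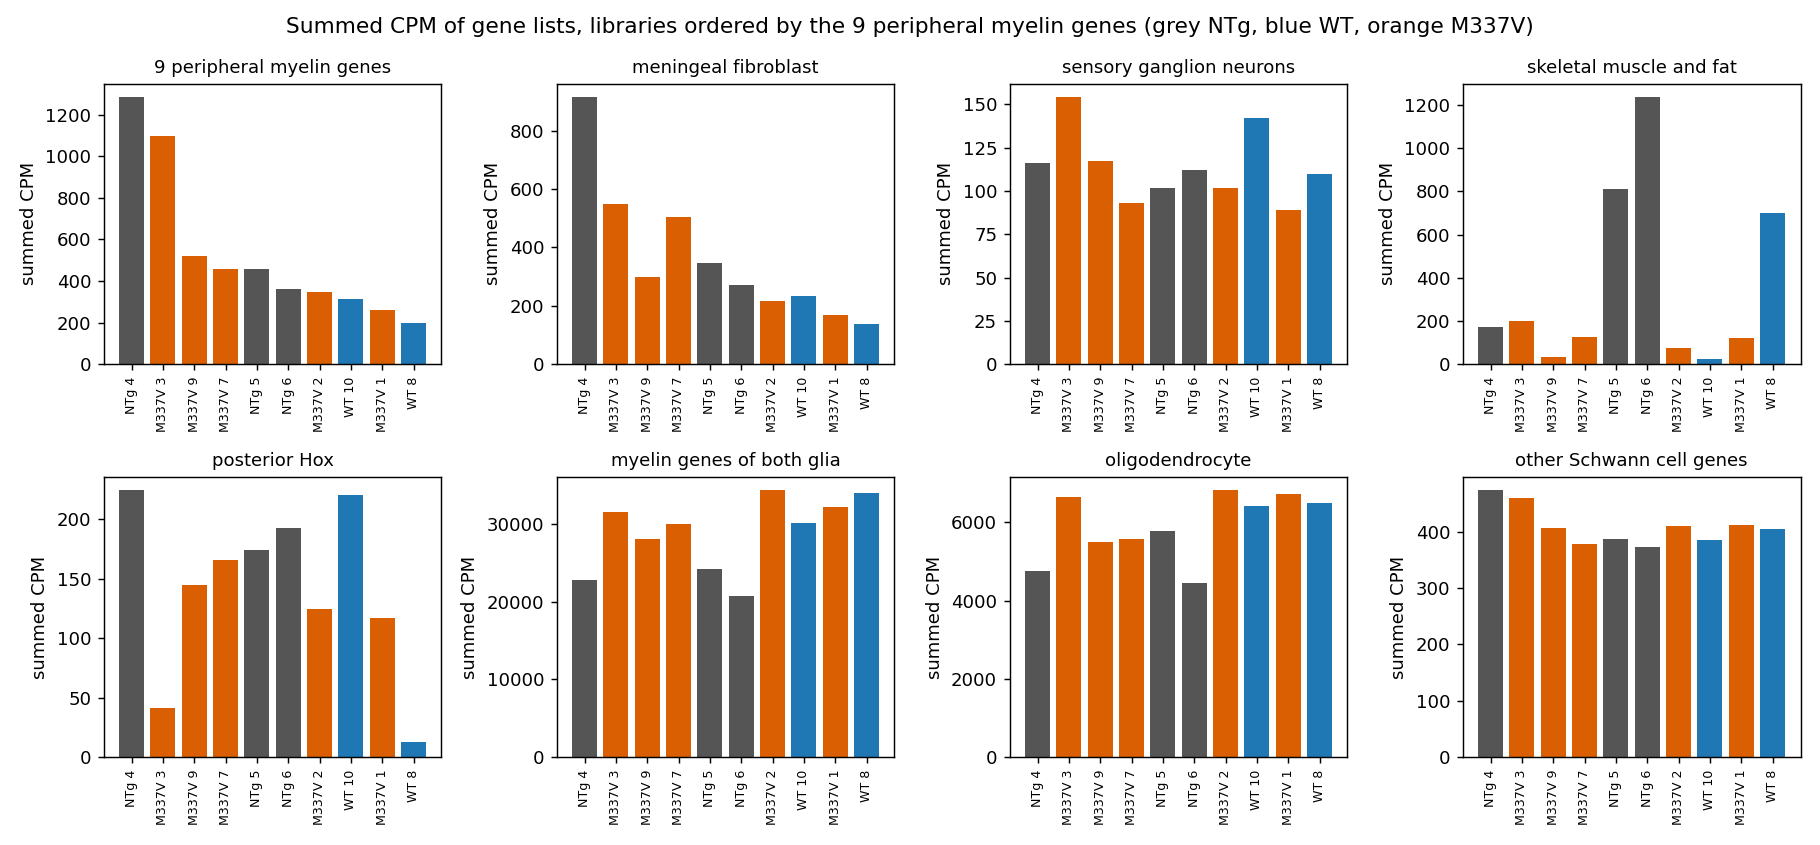
Summed CPM of the 9 genes and of 7 other gene lists in each library, linear axes from 0, with libraries in the same order in every panel, from the highest to the lowest summed level of the 9 genes; grey for NTg, blue for WT and orange for M337V. The meningeal list is also highest in NTg 4 (915 CPM) and lowest in WT 8 (136 CPM), the muscle and fat list is highest in NTg 6, and the oligodendrocyte list runs from 4448 to 6818 CPM.

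Genes outside the 9 with the most similar pattern were ranked by the Pearson correlation of log2 CPM with the mean of the 9, over 10 libraries. Of 13648 candidates with a mean of at least 1 CPM, 49 exceeded 0.9. The 8 highest were Fam178b (0.993), Slc36a2 (0.993), Ogn (0.989), Plekha4 (0.987), Gpc3 (0.983), Mfap5 (0.983), Sbspon (0.975) and Arhgap19 (0.973). Without NTg 4 and WT 8 their correlations ran from 0.963 (Plekha4) to 0.995 (Arhgap19). Ogn encodes osteoglycin, a proteoglycan of connective tissue, and Mfap5 a microfibril protein, so the nearest patterns include matrix genes. Ogn gave 139, 43.2 and 21.9 CPM in NTg, 3.45 and 22.8 in WT, and 10.4, 22.8, 120.1, 42.8 and 41.5 in M337V. None of the 8 was called in any comparison.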

How the data were processed

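Polyadenylated RNA from 10 mice was made into stranded paired-end libraries, per the labels' protocols. The authors deposited whole-number counts per gene. STAR 2.4.2a and featureCounts of Subread 1.4.6 are named in the submitters' processing notes, and the sources used here do not give the genome build or the strand setting of the counting, so reads of antisense genes may be shared. Groups followed the genotype labels. Of 22024 identifiers, 21774 were named from GENCODE M21. Genes were kept by edgeR's filterByExpr (minimum count 10, minimum total 15), which removed 6833, and scaled by TMM. A model with 1 mean per group over all 10 libraries was tested with edgeR 4.0.16 (R 4.3.3) at an adjusted p of 0.05, with DESeq2 1.42.0 as an alternative. The pipeline was tested on simulated data. CPM per kilobase used the union of exons. Interval bounds are exact at 95% and cover counting error only. The members and lists were chosen with earlier results of these data known. Beyond the 9 genes, the text names the called genes of each list (up to 4 per comparison and direction), its 4 most abundant genes and the 8 genes most alike in pattern. Other genes were named after their values were seen, and some genes that this rule covers are not reported here.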

Additional observations from a re-analysis of the deposited data

Results flagged for a closer look

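Within M337V, the gap between the highest library and the next, as a share of the whole range, passed Dixon's 95% critical value for 3 genes, each time for M337V 3: 0.836 for Pmp2, 0.744 for Ncmap and 0.730 for Pmp22. Of 24 values examined this way 3 passed, and chance alone flags about 1 in 20 groups. The 3 genes share that library and are not independent. The NTg and WT groups, which hold fewer animals, were not examined with this test, so it says nothing about NTg 4 or WT 8.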

How the results depend on the processing

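The count of called genes among the 9 was 0 in M337V against NTg and in M337V against WT under every alternative run: size factors by relative log expression, no filter on low counts, DESeq2, the compared groups alone, leaving out each library in turn, and leaving out NTg 4 and WT 8, or those and M337V 3, together. The last was chosen after seeing the data. In WT against NTg the count was 1 with DESeq2, and 0 to 1 when single libraries were left out, 1 without M337V 3. The single estimates of M337V against NTg changed sign without NTg 4, to 0.40 for Prx, 0.48 for Pmp22, 0.42 for Ncmap, 0.23 for Drp2, 0.38 for Cldn19 and 0.43 for Dhh, and to the same values without WT 8 too, save 0.47 for Pmp22. Leaving out 1 library gave ranges of -1.32 to 0.40 for Prx, -0.72 to 0.48 for Pmp22, -1.14 to 0.42 for Ncmap, -0.64 to 0.23 for Drp2, -1.38 to 0.38 for Cldn19, -1.19 to 0.43 for Dhh and -0.82 to 0.68 for Pmp2. Pmp2 went to -0.41 without NTg 6, -0.82 without M337V 3 and -0.20 without NTg 4, WT 8 and M337V 3, where Pmp22 was 0.026 and the other 7 genes were negative, from -0.63 (Egr2) to -0.06 (Dhh). The cause was not tested. Counts over all genes ran from 2 to 1499 in M337V against NTg, 44 to 1720 in WT against NTg and 0 to 30 in M337V against WT. No paired analysis was possible because the groups share no animal number. Depth limits Pmp2, Egr2 and Dhh, which had 0, 5 and 3 counts in WT 8, and the 2 WT animals limit every comparison with that group.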
